A study of Mus musculus with 6 samples.

Results

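Short multi-exon protein-coding genes were defined as genes whose longest protein-coding transcript in the deposited table had 2 or more exons and a genomic span under 5000 bp. Spans and exons were taken from GENCODE release M21 on mm10. The rule found 1325 of the 17349 genes in the table. They spanned 662 bp (Elp5) to 4998 bp (Slc25a34), with a median of 3269 bp and 4 exons. There were 18 genes under 1 kb, 199 of 1 to 2 kb, 335 of 2 to 3 kb, 367 of 3 to 4 kb and 406 of 4 to 5 kb. By exon number, 321 had 2 exons, 262 had 3, 222 had 4, 166 had 5 and 354 had 6 or more.

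RNA polymerase II starts at a promoter, often pauses a short way downstream, and is then released into the gene body, where the RNA is spliced as it is made. In a short gene the promoter, the introns and the cleavage site lie close together, so a polymerase crosses the whole gene soon after release. Many genes of this kind make abundant housekeeping products, such as ribosomal proteins and small subunits of the respiratory chain, and others are induced quickly by signals, such as Fos.

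The study measured transcription in C57BL/6 mouse embryonic stem cells in which Mettl3 had been knocked out, in a first knockout (KO1, 2 libraries) and a second knockout (KO2, 2 libraries), and in control cells (Control, 2 libraries). Mettl3 carries the methyltransferase activity that places m6A on RNA. All groups were grown in serum medium with LIF and with inhibitors of GSK3 (CHIR99021) and MEK (PD0325901), and all libraries came from precipitation with the same kind of antibody against RNA polymerase II. The sources used here do not give how the knockouts were made, whether each is 1 clone, or what the control cells carry.

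In mNET-seq, chromatin is cut with nuclease, the polymerase is precipitated, and the short RNA it holds is sequenced. The deposited value is an escaping index, a log2 ratio within a transcript. Whether it is scaled to length is not stated in the labels. As a ratio it does not measure the abundance of an RNA, so it can check neither the loss of Mettl3 nor the purity of the cells. All 8 markers of naive stem cells that were looked up were in the table, and 2 of 7 fibroblast markers (Col1a1 and Thy1) were as well. Of a wider list of 15 fibroblast genes, which includes these 2, 6 were in the table. The read depth is unknown. Between replicates the index of the short genes correlated across genes at r = 0.952 in KO1, 0.955 in KO2 and 0.940 in Control, against 0.969, 0.973 and 0.962 for 11286 multi-exon coding genes of 5 kb or more. Genes are not independent replicates in these values. The labels do not say whether the 2 libraries of a group were grown separately. The p-values below therefore rest on the spread between these libraries alone, and that spread may be technical.

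The start regions of 6 short genes are printed first. They were taken from the called genes with the smallest p in each direction, in KO2 and in the average of both knockouts, by the test described below. Slc25a35, Creb3, Tsga10ip and Tuba1a came under the same rule and are not printed. Each line gives 150 bases from RefSeq (GRCm38.p6), 100 before the annotated start and 50 from it on, 5′ to 3′ on the strand of the gene. Capitals mark matches on either strand to the letters TATAAA (the TATA box), to CCAAT (named after its letters) and to GGGCGG (the GC box). Rpp38 lies on chromosome 2 (chr2:3332579-3332728, minus strand), A930018P22Rik on chromosome 2 (chr2:104122669-104122818, plus strand), Nat9 on chromosome 11 (chr11:115187350-115187499, minus strand) and Twist1 on chromosome 12 (chr12:33957571-33957720, plus strand). These 4 genes had a lower index in KO2. Wfikkn1 on chromosome 17 (chr17:25880809-25880958, minus strand) and Rpl7a on chromosome 2 (chr2:26910707-26910856, plus strand) had a higher one in KO2, although Rpl7a was at -0.03 when all its transcripts were averaged.
Rpp38: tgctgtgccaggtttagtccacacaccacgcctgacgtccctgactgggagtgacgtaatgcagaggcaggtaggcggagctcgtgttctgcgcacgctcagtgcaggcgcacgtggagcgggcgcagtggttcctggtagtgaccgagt
A930018P22Rik: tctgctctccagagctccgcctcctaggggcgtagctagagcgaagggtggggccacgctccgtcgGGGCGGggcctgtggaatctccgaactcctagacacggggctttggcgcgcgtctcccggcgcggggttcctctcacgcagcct
Nat9: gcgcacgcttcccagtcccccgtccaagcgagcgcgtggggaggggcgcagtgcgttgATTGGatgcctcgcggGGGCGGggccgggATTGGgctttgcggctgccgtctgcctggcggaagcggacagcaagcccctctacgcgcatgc
Twist1: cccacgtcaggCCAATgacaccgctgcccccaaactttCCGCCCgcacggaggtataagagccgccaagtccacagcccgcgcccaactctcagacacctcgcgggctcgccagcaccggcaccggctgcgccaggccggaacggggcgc
Wfikkn1: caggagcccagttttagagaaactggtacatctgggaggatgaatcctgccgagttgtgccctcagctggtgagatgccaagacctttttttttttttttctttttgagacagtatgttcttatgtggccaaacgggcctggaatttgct
Rpl7a: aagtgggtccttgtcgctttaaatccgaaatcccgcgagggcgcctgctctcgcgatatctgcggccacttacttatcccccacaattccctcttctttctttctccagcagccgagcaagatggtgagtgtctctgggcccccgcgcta

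The windows of Rpp38, Wfikkn1 and Rpl7a held none of the 3 motifs within these 150 bases, and those of Nat9 and Twist1 held both a CCAAT match and a GC box. A start within 50 bases of the one in RefSeq was found for 759 of the 1325 short genes, and their full windows of 300 bases were searched on both strands. TATAAA was present in 9.88% of them, CCAAT in 43.6% and GGGCGG in 62.3%. The shares were 5.78%, 40.6% and 69.8% in 6466 longer multi-exon coding genes, and 13.6%, 37.4% and 35.7% in all 32851 RefSeq promoter windows. In 148 coding genes of 1 exon under 5 kb they were 11.5%, 39.9% and 60.8%, near those of the short multi-exon genes. The 75 short genes with TATAAA had a median Control index per kb of -0.08, against 0.30 in the 684 without it. The median log2 difference of KO2 from Control was -0.60 with TATAAA and -0.58 without it, -0.64 in the 331 with CCAAT and -0.54 in the 428 without it, and -0.59 in the 473 with GGGCGG and -0.56 in the 286 without it. These matches describe letters in a window and were not tested.

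Among the short genes the index climbed with span. The median index over all 1325 was 1.54 and 1.54 in the KO1 libraries and 1.37 and 1.32 in the KO2 libraries, against 1.92 and 1.85 in the Control libraries. All 4 knockout libraries lay below both controls. Over all 17349 genes the median was 3.80 ± 0.011 in KO1, 3.62 ± 0.015 in KO2 and 4.13 ± 0.0048 in Control (SD, n = 2 each). With 2 libraries against 2, an exact permutation test on ranks cannot give a two-sided p below 0.333. With 4 against 2 it cannot go below 0.133, so medians are given here as a description.

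Because the index went with span, levels are compared below per kb, as the index less the log2 of the span in kb. On this scale the short genes were at -0.03 ± 0.0085 in KO1, -0.22 ± 0.048 in KO2 and 0.29 ± 0.024 in Control (SD of 2 library medians). The longer multi-exon coding genes were close to them, at -0.12 ± 0.0022, -0.31 ± 0.0066 and 0.26 ± 0.032. Within the short genes the level per kb was lowest at the shortest spans. Genes under 1 kb were at -0.52 ± 0.23 in KO1, -0.60 ± 0.11 in KO2 and -0.27 ± 0.15 in Control, and those of 4 to 5 kb at 0.22 ± 0.063, 0.02 ± 0.0093 and 0.57 ± 0.041. The level per kb was about the same again at 5 to 10 kb (0.16, 0.06 and 0.58), and it was lower over 50 kb (-0.57, -0.83 and -0.21). Coding genes of 1 exon under 5 kb were at -0.32, -0.69 and -0.13.

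**Figure D1:**
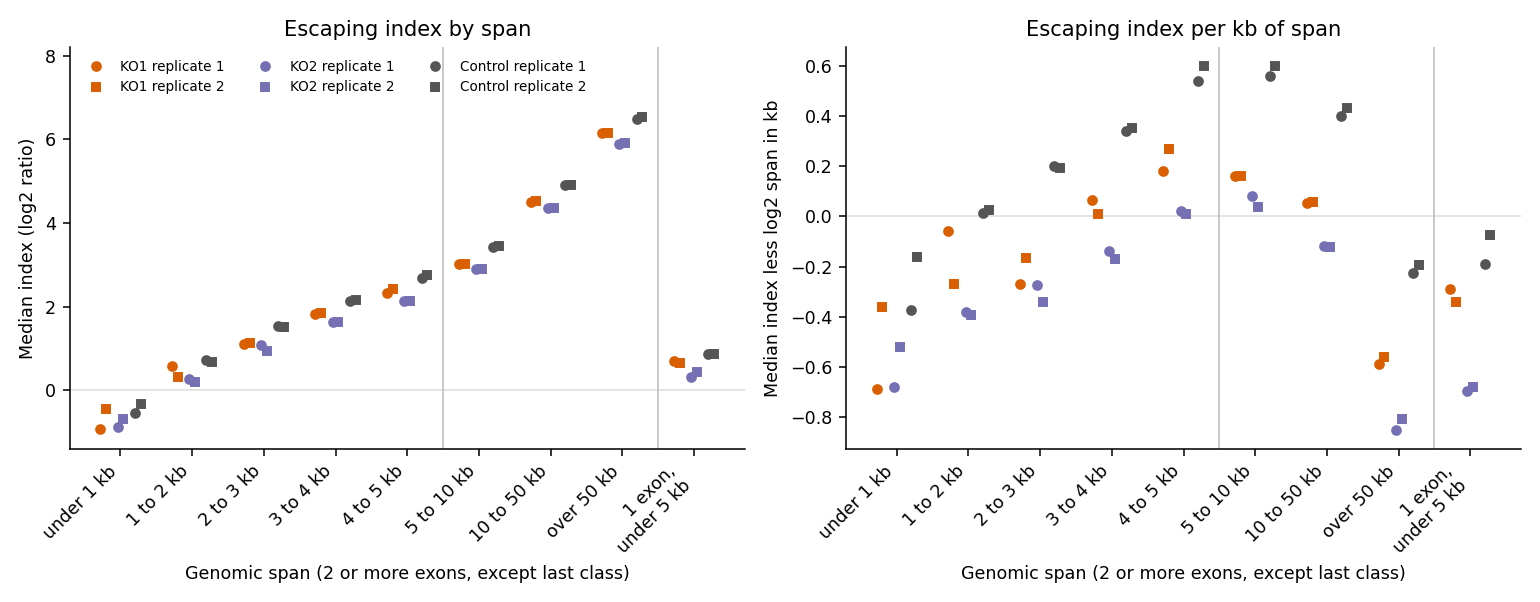
Median escaping index (left, log2 ratio) and median index less the log2 span in kb (right) in each of the 6 libraries, for multi-exon coding genes by span and, last, for 1-exon coding genes under 5 kb. Each point is 1 library; the 5 classes left of the first vertical line are the short genes, whose Control medians per kb were -0.27 under 1 kb and 0.57 at 4 to 5 kb, and the 2 libraries of each group lay farthest apart under 1 kb.

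The index followed span more steeply in short genes than in longer ones in all 6 libraries. The slope of the index on log2 span was 1.16 ± 0.037 in KO1, 1.20 ± 0.0017 in KO2 and 1.28 ± 0.030 in Control over the short genes, where a slope of 1 would mean a ratio in proportion to span. Over the longer multi-exon coding genes it was 0.73, 0.70 and 0.73. The scatter around this was wide, as Pearson's r between index and log2 span across the 1325 short genes was only 0.361 in KO1, 0.370 in KO2 and 0.412 in Control. Replicates were also less alike at the shortest spans, with a median SD between them of 0.43 under 1 kb and 0.33 at 1 to 2 kb, against 0.24 at 10 to 50 kb.

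Exon number went with the level as well. With 2 exons the median per kb was -0.37 ± 0.091 in KO1, -0.54 ± 0.071 in KO2 and -0.05 ± 0.054 in Control. With 6 or more exons it was 0.22 ± 0.076, 0.09 ± 0.040 and 0.60 ± 0.018 (SD of 2 library medians). Because genes with more exons were also longer (median span 3718 bp against 2921 bp), exon classes were compared within a span class. At 2 to 3 kb, genes with 6 or more exons were at 0.29 and 0.08 in the KO1 libraries, 0.15 and 0.14 in KO2, and 0.48 and 0.61 in Control. Those with 2 exons were at -0.56 and -0.49 in KO1, -0.50 and -0.48 in KO2, and 0.05 and -0.06 in Control. Each library therefore had the higher median in the class with more exons. The difference (6 or more exons minus 2 exons) lay between 0.43 and 0.85 over the 6 libraries at 2 to 3 kb, between 0.36 and 0.61 at 3 to 4 kb, and between 0.55 and 1.00 at 4 to 5 kb. At 1 to 2 kb, where only 16 genes had 6 or more exons, it ran from -0.24 to 0.39 and had no common sign.

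**Figure D2:**
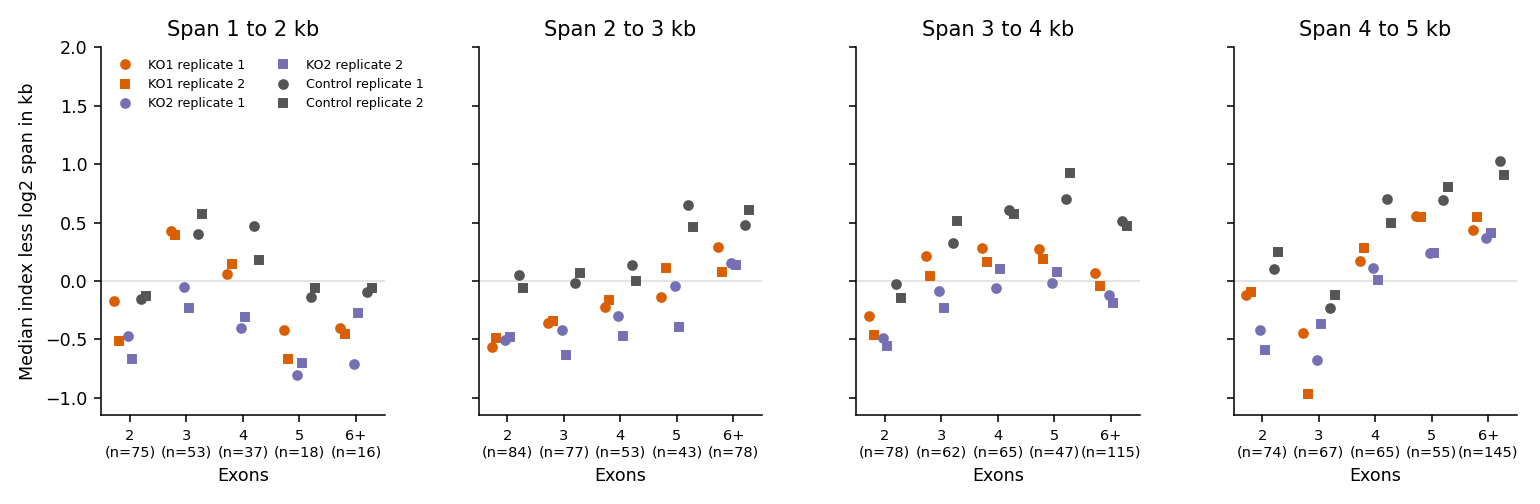
Median index less the log2 span in kb (log2 scale) by exon number in 4 span classes, with 1 point per library and the number of genes under each class. In the 3 classes from 2 to 5 kb the points for 6 or more exons lie above those for 2 exons in each of the 6 libraries, while 3-exon genes of 4 to 5 kb lie lowest of their panel in Control, at -0.23 and -0.12.

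Ribosomal protein genes and hosts of small RNAs were uneven over these classes. The class with 6 or more exons held 26 ribosomal protein genes and 29 genes with a small RNA gene inside or overlapping them, and the 2-exon class held 0 and 3. Without the ribosomal protein genes the difference lay between 0.34 and 0.52 at 2 to 3 kb, between 0.27 and 0.56 at 3 to 4 kb and between 0.48 and 0.94 at 4 to 5 kb. In genes that overlap no other gene it lay between 0.43 and 0.89, between 0.04 and 0.46, and between 0.56 and 1.32. The sign was thus kept in all 6 libraries from 2 to 5 kb. At 1 to 2 kb the difference among genes without overlap had the opposite sign in all 6 libraries, from -0.77 to -0.22, with 11 genes of 6 or more exons and 42 of 2 exons. Across all 1325 genes the link was weak, with Spearman's rho of 0.164 in KO1, 0.176 in KO2 and 0.192 in Control between exon number and the level per kb.

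Single genes marked the ends of the range. They had the highest or lowest mean index over all libraries in their span class. Their values are given here as the index per kb. Hspa8, a constitutive Hsp70 chaperone with 3 snoRNA genes in its introns, was the highest at 4 to 5 kb, at 7.86 in KO1, 8.91 in KO2 and 7.69 in Control. The ribosomal protein gene Rpl19, which holds a small RNA gene, was highest at 3 to 4 kb (6.37, 5.88 and 5.42). Tmsb10, which encodes an actin-binding thymosin and holds no small RNA gene, was highest at 1 to 2 kb (5.85, 4.72 and 5.99). The low end was held by Grcc10 (-6.68, -6.59 and -6.20), which overlaps the Rnu7 gene of a small nuclear RNA, and by Nppc, the precursor of C-type natriuretic peptide (-6.35, -6.20 and -4.79). Others were Endod1 (-4.75, -5.72 and -3.98) and Mchr1, a receptor of melanin-concentrating hormone (-4.70, -4.89 and -3.08). Under 1 kb, Dmac1 was highest (2.03, 2.11 and 1.85) and Elp5, a subunit of Elongator, lowest (-2.37, -1.28 and -1.54). The Elp5 and Endod1 transcripts used are short ones, since the longest coding transcripts annotated for these genes span 13029 bp and 27253 bp.

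In the knockouts the index of short genes was lower than in control cells, by about as much as in the rest of the genome. The median log2 difference was -0.35 in KO1 and -0.55 in KO2, against -0.31 and -0.50 over all 17349 genes and -0.37 and -0.58 over the longer multi-exon coding genes. On the linear scale the median difference of the short genes is a ratio lower by 21.5% in KO1 and by 31.6% in KO2. Of the 1325 short genes, 72.2% were lower in KO1 and 83.8% in KO2, against 71.8% and 80.1% of all genes. Both KO2 libraries lay below both controls in 819 short genes (61.8%, against 59.1% of all genes), and both KO1 libraries in 655 (49.4%, against 46.9%). In the average of both knockouts 82.2% were lower (78.5% of all genes), and all 4 knockout libraries lay below both controls in 533 (40.2%, against 38.5%). With every library set to a common median over all genes (median centring), the median difference of all genes was 0.02 in KO1 and 0.01 in KO2, and that of the short genes was -0.01 and -0.03. After quantile normalization the short genes were at -0.10 in each knockout, beside -0.01 in KO1 and -0.01 in KO2 over all genes.

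The shortest genes had the smallest differences in KO1. Relative to Control the median was 0.08 in KO1 for the 18 genes under 1 kb, -0.18 at 1 to 2 kb, -0.36 at 2 to 3 kb, -0.37 at 3 to 4 kb and -0.42 at 4 to 5 kb. In KO2 the same classes were at -0.23, -0.50, -0.53, -0.58 and -0.59. After median centring the genes of 1 to 2 kb were at 0.16 in KO1 and 0.01 in KO2, and those of 4 to 5 kb at -0.09 and -0.07. By exon number the medians showed no order, with -0.39, -0.26, -0.34, -0.35 and -0.38 in KO1 for 2, 3, 4, 5 and 6 or more exons, and -0.58, -0.52, -0.53, -0.64 and -0.53 in KO2. The correlation of the difference with span across genes was weak (Spearman's rho of -0.112 in KO1 and -0.058 in KO2, 1325 genes that share the same libraries). The shortest classes are also those with the widest spread between replicates, and the part of that spread in the medians was not tested.

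**Figure D3:**
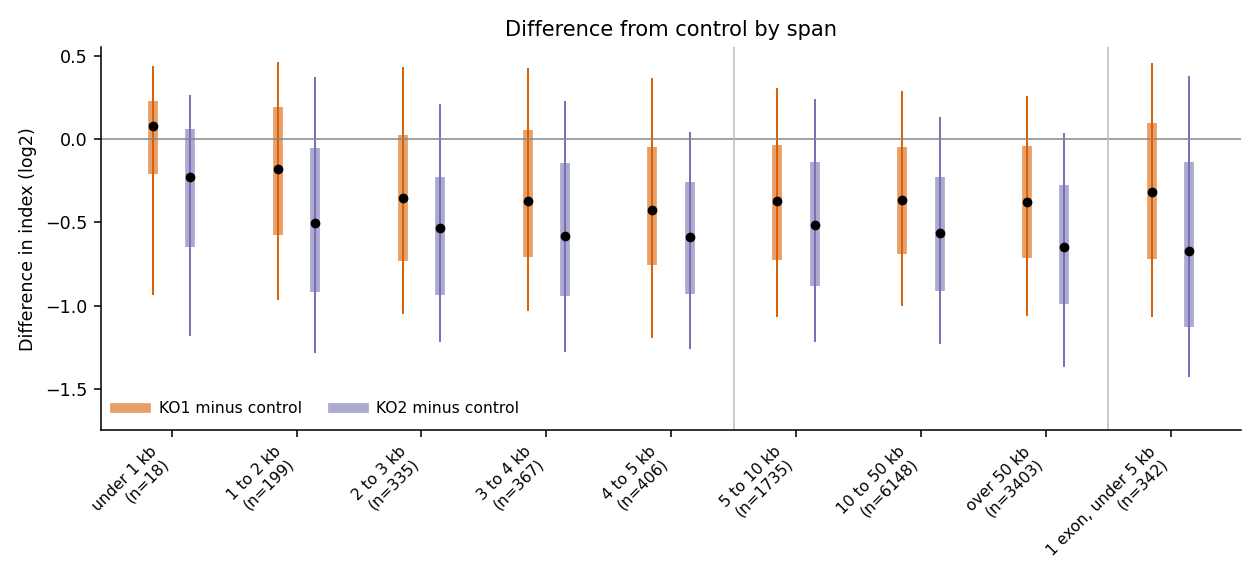
Log2 difference of the index from Control in KO1 (orange) and KO2 (purple) by span, with the number of genes in each class. Dots are medians, thick bars reach from the 25th to the 75th percentile of genes and thin lines from the 10th to the 90th; the KO1 median lay at 0.08 under 1 kb and at -0.42 at 4 to 5 kb, and the classes overlapped over most of their range.

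In KO2 against Control, limma called 187 of the 1325 short genes (14.1%) at an adjusted p under 0.05, 183 of them lower and 4 higher. Of all genes 17.9% were called, 17.5% lower and 0.421% higher, so the share among the short genes lay below that of the table. Of the longer multi-exon coding genes 22.4% were called. The median SE of the KO2 difference was 0.29 in the short genes and 0.24 in the longer ones. The part of this SE in the shares was not tested. At an unadjusted p under 0.05, 469 short genes were lower and 17 higher, against 36.6% and 1.95% of all genes. In the average of both knockouts 171 were called (12.9%, against 15.6% of all genes), 167 lower and 4 higher, against 15.1% and 0.496% of all genes. Of these, 127 were called in both contrasts, which share the KO2 and Control libraries. After median centring limma called 0 short genes in KO2. At an unadjusted p under 0.05, 119 were then lower and 97 higher, beside 1918 lower and 1886 higher of all 17349 genes. With protein-coding genes alone in the fit the calls among short genes numbered 310 in KO2 and 269 in the average. With all transcripts of a gene averaged they numbered 83 and 72. The shares of all genes called in these fits are not given here, so the counts cannot be set against them.

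Several short genes fell in KO2 and in the average of both knockouts, with the KO1 libraries below both controls as well. Twist1, a bHLH transcription factor of the mesoderm (chr12:33957671-33959829, 2 exons), had an index of 0.00 and -0.32 in KO1 and -0.17 and 0.00 in KO2, against 2.00 and 2.59 in Control. The 4 knockout libraries lay close together and far below both controls, a log2 difference of -2.41 ± 0.25 (SE) in the average, with a limma adjusted p of 0.0291. In KO1 replicate 1 and KO2 replicate 2 the ratio of Twist1 was exactly 1 once the offset was taken off (within 1e-09), and the reads behind it are unknown. Nat9, an N-acetyltransferase (chr11:115182832-115187390, 7 exons, longest annotated coding transcript 5013 bp), was at 2.06 and 2.00 in KO1 and 2.27 and 2.27 in KO2, against 3.94 and 3.71 in Control. Its groups did not overlap, and it fell by 1.67 ± 0.17 in the average (limma adjusted p = 0.0291).

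Rhebl1, a small GTPase related to Rheb (chr15:98877778-98881480, 8 exons, longest annotated coding transcript 16088 bp), had 2.68 and 2.15 in KO1 and 2.56 and 2.77 in KO2, against 4.17 and 4.33 in Control, a fall of 1.71 ± 0.22 in the average. Thap7, a THAP-domain protein (chr16:17527982-17531136, 5 exons), had 0.41 and 0.46 in KO1 and 0.99 and 1.01 in KO2, against 2.10 and 2.23 in Control, a fall of 1.45 ± 0.18. Both had all 4 knockout libraries below both controls, at a limma adjusted p of 0.0291. Creb3, a transcription factor held in the endoplasmic reticulum membrane, fell by 1.51 ± 0.17 in the average, but it overlaps Gba2 and Tln1, and it was at 0.01 in the average and 0.10 in KO1 when all its transcripts were averaged. The reads of overlapping genes cannot be told apart here, because the sources used do not say whether counting used the strand.

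In other short genes the index fell in KO2 and was nearer to Control in KO1. Slc25a35, a mitochondrial carrier (chr11:68968131-68972516, 5 exons, overlapping Rangrf, longest annotated coding transcript 6218 bp), had 2.69 and 2.64 in KO1 and 1.14 and 1.26 in KO2, against 3.29 and 3.53 in Control. Rpp38, a protein subunit of RNase P and RNase MRP (chr2:3328949-3332643, 2 exons), had 1.28 and 1.06 in KO1 and -0.30 and -0.39 in KO2, against 1.62 and 1.62 in Control. A930018P22Rik (chr2:104122769-104124749, 2 exons) had -0.27 and 0.14 in KO1 and -1.29 and -1.52 in KO2, against 0.74 and 0.83 in Control. In all 3 genes the KO2 libraries were lowest, the KO1 libraries lay between, and the groups did not overlap. The falls in KO2 were 2.21 ± 0.20 in Slc25a35, 1.96 ± 0.22 in Rpp38 and 2.19 ± 0.26 in A930018P22Rik, each with a limma adjusted p of 0.0281. The differences of KO1 from Control, -0.75, -0.45 and -0.85, did not pass the test (limma adjusted p = 0.097, 0.249 and 0.119). The difference between KO1 and KO2 itself did not pass in any of the 3 (1.46, 1.52 and 1.34, limma adjusted p = 0.167 each).

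Atf4, Ripk3 and Elovl1 also fell in KO2 and in the average. Atf4, the transcription factor of the integrated stress response (chr15:80255184-80257541, 3 exons), had 3.94 and 3.80 in KO1 and 3.52 and 3.27 in KO2, against 4.87 and 4.80 in Control. It fell by 1.44 ± 0.18 in KO2 and by 1.20 ± 0.16 in the average (limma adjusted p = 0.0281 and 0.0291). Ripk3, the kinase of necroptosis (chr14:55784995-55788865, 10 exons), had 3.10 and 2.84 in KO1 and 2.53 and 2.56 in KO2, against 4.10 and 3.97 in Control, and fell by 1.49 ± 0.19 in KO2. Elovl1, an elongase of very long fatty acids that overlaps the cell cycle gene Cdc20, fell by 1.58 ± 0.21 in KO2. These genes had no overlap between the knockout and Control libraries.

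Few short genes rose. Wfikkn1, a secreted protein with protease inhibitor domains (chr17:25877628-25880858, 2 exons), had 2.47 and 1.79 in KO1 and 2.72 and 3.06 in KO2, against 0.69 and 1.17 in Control. It rose by 1.96 ± 0.33 in KO2 and 1.58 ± 0.29 in the average (limma adjusted p = 0.0298 and 0.0310), and it overlaps the gene Gm26694. Tsga10ip, a partner of the testis protein Tsga10 (chr19:5390049-5394401, 4 exons), had 2.97 and 2.63 in KO1 and 2.59 and 2.39 in KO2, against 1.55 and 1.36 in Control. All 4 knockout libraries of both genes lay above both controls. Tsga10ip rose by 1.03 ± 0.23 in KO2 and by 1.19 ± 0.20 in the average (limma adjusted p = 0.0383 and 0.0293), and its longest annotated coding transcript spans 12478 bp, so the one used is a short form.

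Rab3a, a GTPase of synaptic vesicles, had 0.90 and 1.53 in KO1 and 1.77 and 2.03 in KO2, against 0.62 and 0.82 in Control, and rose in KO2 by 1.18 ± 0.29 (limma adjusted p = 0.0468). Rpl7a, of the large ribosomal subunit, had 4.88 and 4.60 in KO1 and 5.49 and 5.34 in KO2, against 4.67 and 4.58 in Control. It rose in KO2 by 0.79 ± 0.18 (limma adjusted p = 0.0422), holds 3 small RNA genes, and was at -0.03 with all its transcripts averaged. In the average, Hspb2, a small heat shock protein that overlaps Cryab, rose by 1.58 ± 0.32 and Tuba1a, an alpha-tubulin, by 0.85 ± 0.16 (limma adjusted p = 0.0350 and 0.0315). Tuba1a had 3.86 and 3.83 in KO1 and 3.31 and 3.40 in KO2, against 2.67 and 2.83 in Control, and overlaps Gm49450. The next in order did not pass: Cyb561d2 in KO2 (2.10 ± 0.55, limma adjusted p = 0.0523) and Kiss1, the kisspeptin gene, in the average (0.78 ± 0.23, limma adjusted p = 0.0693).

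**Figure D4:**
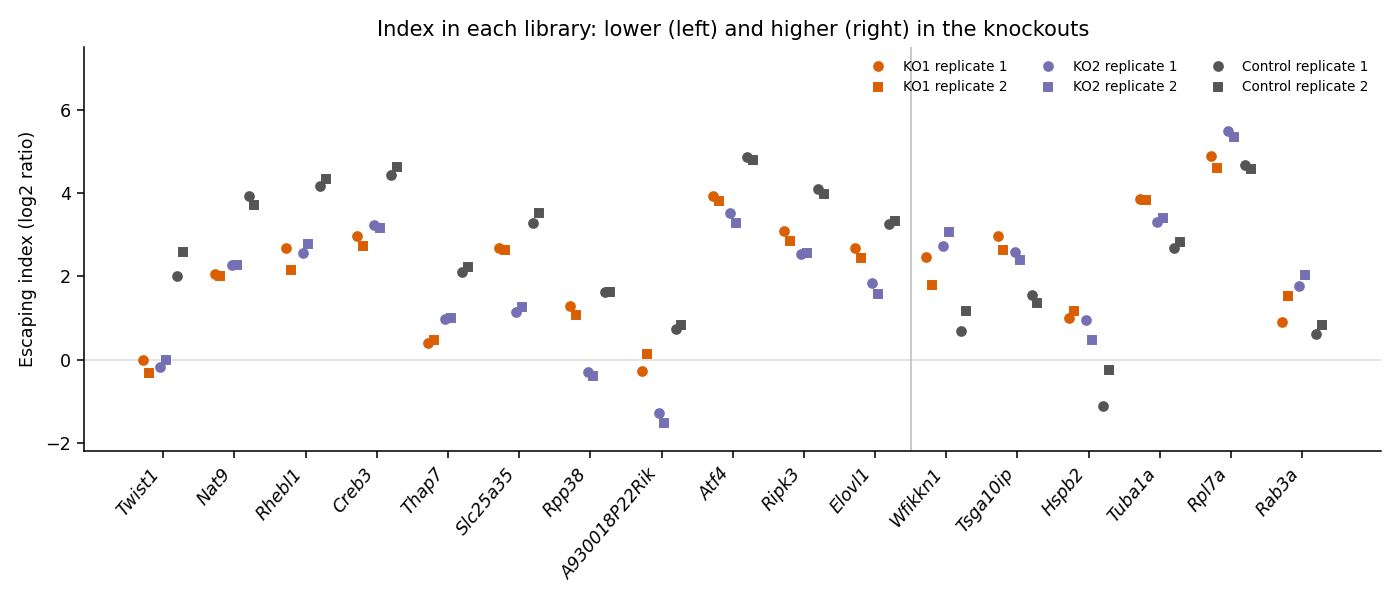
Escaping index (log2 ratio) of 17 short genes in each of the 6 libraries, KO1 in orange, KO2 in purple and Control in grey. In the 11 genes left of the vertical line the knockout libraries lie below both controls, and in the 6 to its right they lie above them, except that KO1 replicate 2 of Rpl7a lies between the controls; Rpl7a and Rab3a were called in KO2 only, and Hspb2 and Tuba1a in the average only.

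In KO1 against Control limma called 0 of the 1325 short genes, as it called 0% of all genes (smallest adjusted p = 0.0602). At an unadjusted p under 0.05, 300 short genes were lower and 34 higher, against 23.9% and 3.24% of all genes. After median centring these counts were 128 lower and 117 higher, beside 1593 lower and 1728 higher of all 17349 genes. With protein-coding genes alone in the fit 57 short genes passed, 53 lower and 4 higher. The share of all coding genes that passed in that fit is not given here, so the count cannot be set against it. Of the 5 lowest by p, Twist1 was at -2.45 ± 0.29, Nat9 at -1.79 ± 0.19, Thap7 at -1.73 ± 0.21, Creb3 at -1.69 ± 0.19 (0.10 with all transcripts averaged) and Rps3a1, of the small ribosomal subunit, at -1.23 ± 0.16. Of the 5 highest by p, Trh, the precursor of thyrotropin-releasing hormone, was at 1.14 ± 0.17, Mt3, a metallothionein, at 1.50 ± 0.25, Tuba1a at 1.09 ± 0.18, Tsga10ip at 1.35 ± 0.23 and Hspb2 at 1.77 ± 0.37. Their limma adjusted p ran from 0.0602 to 0.0694, so these are values and not calls.

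In KO1 against KO2 limma called 0 short genes and 0% of all genes (smallest adjusted p among short genes 0.167). At an unadjusted p under 0.05, 200 were higher and 40 lower in KO1, against 14.6% and 3.38% of all genes. The median difference of KO1 from KO2 was 0.21 over the short genes and 0.19 over all genes. Among the values, Mt3 stood at 1.72 and 1.59 in KO1 and -0.50 and -0.21 in KO2, with 0.00 and 0.31 in Control, where replicate 1 had a ratio of exactly 1 after the offset was taken off. Trh stood at 5.13 and 4.99 in KO1 and 3.66 and 3.65 in KO2, with 3.96 and 3.88 in Control. In both genes the 2 knockouts lay on opposite sides of the controls. Mrpl43, of the mitochondrial ribosome, was at 1.40 and 1.11 in KO1 and 2.30 and 2.27 in KO2, with 2.44 and 2.69 in Control, and overlaps Twnk.

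Grouped by product, cytosolic ribosomal proteins were the largest set, with 66 short genes. Of these, 17 of 66 fell, 1 rose and 48 did not pass in KO2, where 17.5% of all genes were called lower. In the average 11 of 66 fell, beside 15.1% of all genes. Their median difference was -0.23 in KO1 and -0.55 in KO2, against -0.31 and -0.50 over all genes, and 0.11 and -0.03 after median centring. Rpl41, the smallest ribosomal protein, had 2.77 and 2.93 in KO1 and 2.35 and 2.50 in KO2, against 3.67 and 3.73 in Control, and fell by 1.27 ± 0.19 in KO2 (limma adjusted p = 0.0282). Rpl12 fell by 0.95 ± 0.18 in KO2, and Rps3a1 by 0.83 ± 0.14 in the average. Small RNA genes lie in or over 28 of the 66, Rpl12 and Rps3a1 among them, and many ribosomal protein genes have near-identical pseudogenes with which reads may be shared. Per kb these genes stood high, at 1.79 in KO1, 1.34 in KO2 and 2.05 in Control, against -0.11, -0.30 and 0.22 in the other 1259 short genes.

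For the lists that follow, the same shares of all genes called lower apply, 17.5% in KO2 and 15.1% in the average. Of 27 mitochondrial ribosomal protein genes, 2 fell in KO2 and 3 in the average, with medians of -0.33 in KO1 and -0.42 in KO2 (0.00 and 0.10 after median centring). Mrpl57 had -0.07 and -0.33 in KO1 and -0.70 and -1.02 in KO2, against 0.81 and 0.92 in Control, and fell by 1.72 ± 0.25 in KO2 (limma adjusted p = 0.0281). Mrpl49 fell by 0.84 ± 0.18 and Mrpl43 by 0.80 ± 0.19 in the average, and both overlap another gene. Of 28 subunits of oxidative phosphorylation, 3 fell in KO2 and 2 in the average, with medians of -0.25 in KO1 and -0.60 in KO2 (0.09 and -0.08 after median centring). Cox5b, of cytochrome c oxidase, fell by 1.73 ± 0.33 in KO2, and Uqcrq, of complex III, by 0.82 ± 0.20 in the average (limma adjusted p = 0.0318 and 0.0487). Ndufa1, of complex I, was at -0.82 ± 0.24 in the average and did not pass. Of 10 mitochondrial import genes Timm10b fell in KO2 (-0.87 ± 0.21, limma adjusted p = 0.0435), with medians over the 10 of -0.30 in KO1 and -0.65 in KO2 (0.04 and -0.13 after centring).

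The immediate early genes, which signals switch on within minutes, numbered 16 among the short genes. In KO2, 7 of 16 fell and 9 did not pass, beside 17.5% of all genes called lower. The index of 15 of 16 was below Control, as was that of 80.1% of all genes, and the median difference was -0.73, beside -0.50 over all genes (-0.22 and 0.01 after median centring). After centring 9 of 16 were below Control in KO2 and 7 above, beside 49.2% of all genes below. In KO1 the median was -0.32 beside -0.31 over all genes (0.02 beside 0.02 after centring, and -0.15 after quantile normalization), and in the average 4 of 16 fell, beside 15.1% of all genes. One member, Btg2, is also on the list of p53 targets. Fos, a component of the AP-1 factor, had -2.14 and -2.06 in KO1 and -2.71 and -2.96 in KO2, against -0.91 and -1.07 in Control, and fell by 1.84 ± 0.26 in KO2 (limma adjusted p = 0.0281). Ppp1r15a, a phosphatase subunit that restores translation after stress, had -0.15 and 0.05 in KO1 and -1.27 and -1.31 in KO2, against 0.36 and 0.43 in Control, and fell by 1.68 ± 0.23, although it overlaps Tulp2. Arc, a regulator of synaptic receptors, had -0.61 and -0.14 in KO1 and -0.98 and -0.59 in KO2, against 1.06 and 0.70 in Control, and fell by 1.67 ± 0.30. In these 3 genes the KO1 libraries lay below both controls as well, without passing the test (limma adjusted p = 0.0808, 0.271 and 0.0837). Of 4 p53 targets, Phlda3, a repressor of Akt, fell by 1.33 ± 0.25 in KO2 and by 1.10 ± 0.21 in the average, while Gdf15 (-1.01 ± 0.33) and Ddit4l (-0.48 ± 0.30) did not pass in KO2. The medians over the 4 were -0.70 in KO1 and -0.74 in KO2.

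Among 9 histone variants and small chromatin proteins, 3 fell in KO2 (17.5% of all genes) and 1 in the average (15.1% of all genes), with medians of -0.17 in KO1 and -0.69 in KO2 (0.17 and -0.18 after median centring). Hmgn2, which binds nucleosomes, had 1.58 and 1.49 in KO1 and 1.11 and 1.10 in KO2, against 2.39 and 2.36 in Control, and fell by 1.27 ± 0.20 in KO2. Banf1, which bridges chromatin and the nuclear envelope, fell by 1.26 ± 0.24 in KO2 and overlaps Eif1ad, and Hmgb3 (-0.91 ± 0.24) did not pass. Of 16 subunits of RNA polymerases and general transcription factors, Polr2k fell by 1.86 ± 0.35 in KO2 (limma adjusted p = 0.0317) and by 1.36 ± 0.30 in the average, and Polr2i and Taf7 did not pass. Their medians were -0.35 in KO1 and -0.67 in KO2 (-0.01 and -0.15 after centring). Of 7 Hox genes Hoxb13 fell by 1.77 ± 0.27 in KO2. In KO1 replicate 2 its ratio was exactly 1 after the offset was taken off. The replicates of the Hox list were wide apart (median SD of 0.65). The medians of this list were -0.71 in KO1 and -0.66 in KO2 (-0.37 and -0.15 after centring). In KO1, 4 of the 7 genes were below Control and 3 above, beside 71.8% of all genes below. In KO2 all 7 were below, beside 80.1% of all genes. After centring 4 were below in KO2 and 3 above, beside 49.2% of all genes below.

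Of 9 pluripotency genes, 1 fell and 8 did not pass in KO2, and the same gene alone fell in the average, beside 17.5% and 15.1% of all genes called lower. Fgf4, a growth factor of embryonic stem cells, had 1.64 and 1.80 in KO1 and 1.64 and 1.68 in KO2, against 2.45 and 2.48 in Control, and fell by 0.80 ± 0.20 in KO2 and by 0.78 ± 0.17 in the average (limma adjusted p = 0.0460 and 0.0407). Its longest annotated coding transcript spans 15524 bp. The medians over the 9 were 0.03 in KO1 and -0.40 in KO2 (0.37 and 0.12 after median centring), with Nr0b1 at -1.23 ± 0.34 and Dppa3 at 0.63 ± 0.30 in KO2, neither passing. Pou5f1, which encodes Oct4 and overlaps Gm19553, was at 0.00 in KO1 and -0.18 in KO2.

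By the difference of group means the 6 tubulin genes were above Control in KO1, 6 of 6 without passing the test, where 71.8% of all genes were below it. Their median difference was 0.38, while all genes were at -0.31 (0.72 and 0.02 after median centring). In KO2 their median was -0.61 and that of all genes -0.50, with 4 of 6 below Control, as were 80.1% of all genes. Tubb2b had 2.76 and 2.82 in KO1 and 1.85 and 2.01 in KO2, with 1.90 and 1.92 in Control, so that both KO1 libraries lay above both controls and the KO2 libraries on either side of them (0.88 ± 0.19 in KO1, limma adjusted p = 0.0737). In Tubb2a the KO1 libraries (2.28 and 1.88) overlapped those of Control (1.79 and 2.16). At an unadjusted limma p under 0.05, 2 of the 6 tubulin genes were higher in KO1. Tuba1a was the only member of the list to pass, in the average. Tubulin genes have near-identical copies, so single members are uncertain.

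In the remaining lists few or no members passed. Of 6 proteasome genes Psmb8, an immunoproteasome subunit that overlaps Gm20496, fell by 1.70 ± 0.36 in KO2 and by 1.78 ± 0.31 in the average. In KO1 replicate 2 the ratio of Psmb8 was exactly 1 after the offset was taken off. The medians of the 6 genes were -0.26 in KO1 and -0.38 in KO2. Of 8 snoRNP and ribosome assembly genes Exosc8, of the RNA exosome, fell by 0.98 ± 0.21 in the average (limma adjusted p = 0.0394), with medians of -0.25 and -0.60. The longest annotated coding transcript of Exosc8 spans 6716 bp, so the one used is a short form. No member passed among 8 snRNP and splicing genes (medians of -0.33 in KO1 and -0.54 in KO2) or 8 translation factors (-0.29 and -0.46). The same held for 5 heat shock genes (0.17 and -0.75), a list without Hspb2, which was called in the average. It also held for 5 genes of the ubiquitin system (-0.19 and -0.13) and 4 glycolytic genes (-0.38 and -0.47). Lsm10, of the U7 snRNP, was at -1.73 ± 0.43 in the average without passing, with Control libraries of 2.39 and 1.04 that lay far apart. Of 2 short genes on the wider list of fibroblast markers Lgals1 fell in KO2 (-1.03, limma adjusted p = 0.0477) and Tagln (-0.91) did not pass. After median centring the list medians lay between -0.37 and 0.72 in KO1 and between -0.45 and 0.39 in KO2, where all genes were at 0.02 and 0.01.

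**Figure D5:**
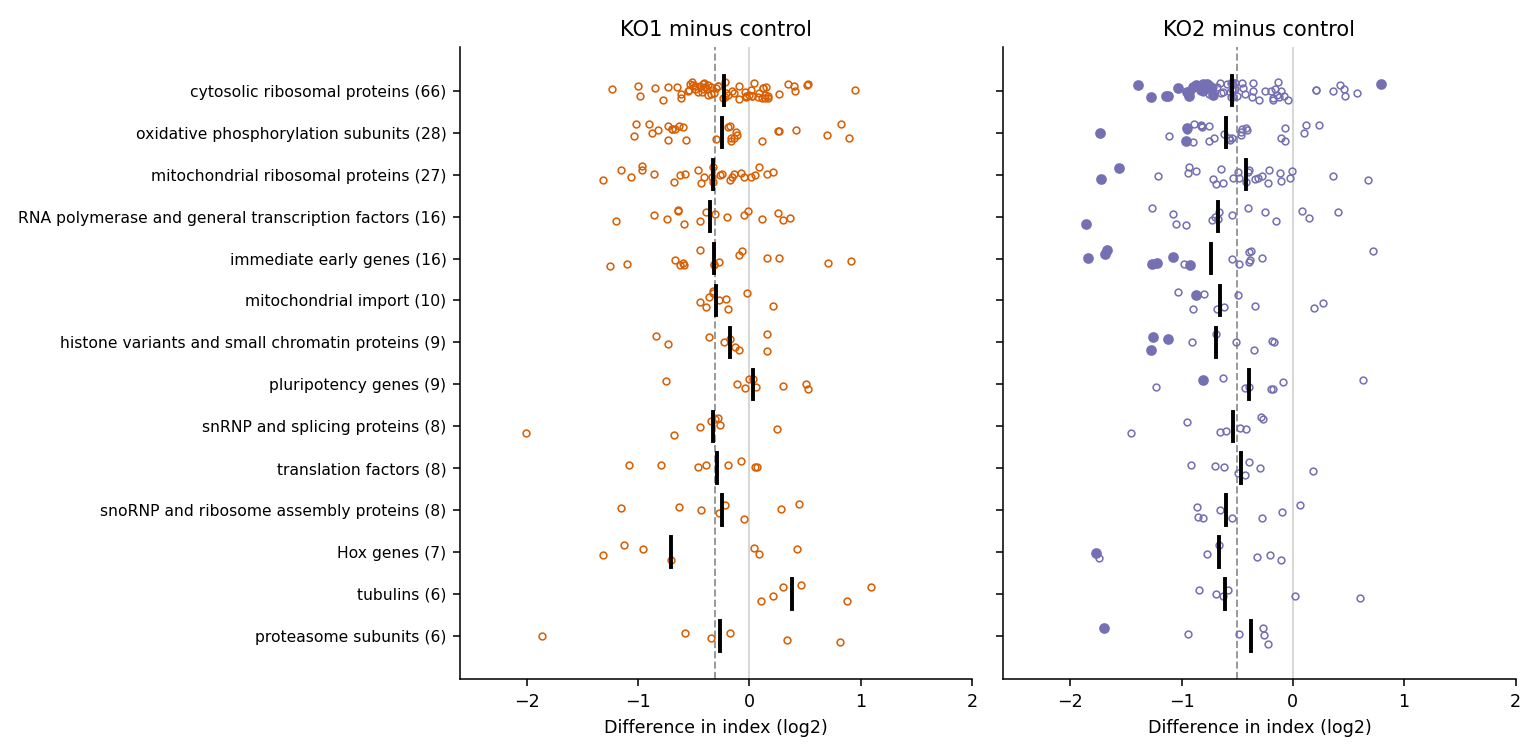
Log2 difference of the index from Control in KO1 (left) and KO2 (right) for the short genes of 14 lists, with the number of members in brackets. Each circle is 1 gene, filled where limma called it, the black bar is the median of the list and the dashed line the median of all genes (-0.31 and -0.50); filled circles appear in KO2 only, and the tubulins lie above 0 in KO1.

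Other features of the short genes were set beside the index. Exons made up a median of 44.5% of their span, against 10.7% in the longer multi-exon coding genes. Their GC content was 55.0%, against 50.0%. The letters GGACT, the commonest core of the m6A consensus, occurred in 77.8% of their transcripts, at a median of 1.16 per kb, against 91.8% and 1.05 per kb in the longer genes. With the short genes cut by GGACT per kb into 4 sets of like size, lowest to highest, the median difference was -0.35, -0.37, -0.36 and -0.33 in KO1 and -0.54, -0.62, -0.51 and -0.57 in KO2. No order is seen in these medians, and Spearman's rho across the 1325 genes was 0.012 in KO1 and -0.003 in KO2.

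Neighbouring genes set a limit on single values. Of the short genes, 529 (39.9%) overlap another annotated gene, against 53.8% of all genes, and 186 do so on the same strand. A small RNA gene lies in or over 63 of them. These 63 were high per kb, at 1.42 in KO1, 1.40 in KO2 and 1.81 in Control, against -0.09, -0.28 and 0.24 in the other 1262, and their median difference in KO2 was -0.43 against -0.56. The longest coding transcript annotated in GENCODE spans 5 kb or more for 84 of the short genes. These were at -0.63, -0.79 and -0.42 per kb and -0.32 in KO2, against 0.03, -0.19 and 0.35 per kb and -0.56 in KO2 in the 1241 others.

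The span limit fell inside a continuous range. Just under it, Slc39a4, a zinc transporter (4994 bp), was at 0.32 in KO1 and -0.46 in KO2 relative to Control, Mrpl18 (4997 bp) at -0.18 and 0.36, and Slc25a34 (4998 bp) at 0.86 and -0.69. Just over it, Noc4l (5000 bp) was at -1.0 and -0.36, 1810022K09Rik (5002 bp) at -0.26 and -0.63, and the splicing factor Srsf5 (5004 bp) at -0.04 and -0.43. None of the 6 passed the test in either knockout.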

How the data were processed

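The authors deposited 1 table of log2 values, an escaping index for 68473 transcripts in 6 libraries. Trimmomatic 0.38, HISAT2 2.1.0, featureCounts and mm10 are named per the submitters' processing notes. The sources used here give neither the windows of the index nor the use of strand, and depth is unknown. In GENCODE M21, 68397 transcripts matched without version. Each gene was represented by its longest protein-coding transcript by genomic span, or otherwise its longest transcript. Values were used as deposited, without rescaling.

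One limma model (version 3.58.1, R 4.3.3) held all 3 groups (group means, variance trend, two-sided). Adjusted p-values are Benjamini-Hochberg over all 17349 genes, called under 0.05. The fit had 3 residual degrees of freedom and a prior of 2.60. It was also run on simulated data in which only a small set of genes differed between groups. That run does not cover a difference over most genes, as was seen here. Summaries were made in Python (3.11.15) with scipy (1.17.1), pandas (2.3.3) and numpy (2.4.6). Alternatives changed the transcript, genes fitted, scaling, pseudocount, index minimum, span limit, overlap filter, block or libraries.

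Named genes are, per contrast against Control, up to 8 called per direction with the smallest p and no overlap with Control, or else up to 5 as values. For KO1 against KO2, 3 per direction are values. Named too are the 3 smallest p in the average per list, the extremes of each span class (1 is not reported here), and 3 genes on each side of the limit. Lgals1, Tagln, Btg2 and Pou5f1 are named outside this rule, after their values were seen. Members and lists were chosen with earlier results of these data known. Of 87 named short genes, 33 overlap another gene.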

Additional observations from a re-analysis of the deposited data

Results flagged for a closer look

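In 4 named short genes the KO1 libraries lay on one side of both controls and the KO2 libraries on the other. The limma test of the difference between KO1 and KO2 passed in none of them. Mt3 differed by 2.01 (KO1 minus KO2, log2), Trh by 1.40 and Rps12 by -1.07, each with a limma adjusted p of 0.167. Slc25a34 differed by 1.55 (limma adjusted p = 0.195), with KO1 libraries at 0.30 and 1.52, KO2 libraries at -0.67 and -0.61 and Control libraries at -0.08 and 0.18. Rps12 had 4.47 and 4.65 in KO1 and 5.65 and 5.60 in KO2, with 5.15 and 5.26 in Control, and it holds 3 small RNA genes. Of all short genes, 45 (3.40%) had KO1 above and KO2 below both controls and 12 (0.906%) the reverse, against 2.74% and 0.824% of all genes.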

How the results depend on the processing

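Called genes numbered 187 in KO2 and 171 in the average. They numbered 0 and 0 after median centring, after quantile normalization, with the replicate block and in every fit without 1 library (range 0 to 0, KO1 included), fits that have an arm of 1 library, assumed to vary like the other groups, and fewer residual degrees of freedom. With each pair of groups alone KO2 had 0. With protein-coding genes alone KO1 had 57, KO2 310 and the average 269, and with the mean of all transcripts 83 and 72. Without overlapping genes the average had 108, and with a limit of 4000 bp it had 109. Both have fewer genes. The shares of all genes called in the fits on coding genes and on averaged transcripts are not given here. The numbers of the libraries do not pair them (r of replicate differences 0.023, -0.012 and -0.0003), so the block is only a check.

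Median differences in KO1, KO2 and the average were -0.24, -0.43 and -0.33 with the mean of all transcripts, -0.013, -0.033 and -0.017 after median centring, -0.098, -0.10 and -0.092 after quantile normalization, -0.28, -0.46 and -0.37 with a pseudocount of 0.4, and -0.12, -0.19 and -0.16 with one of 4. Leaving out 1 library gave -0.37 to -0.33, -0.57 to -0.54 and -0.47 to -0.44. Without overlapping genes KO2 was at -0.60.

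The median index in KO1, KO2 and Control was 0.96, 0.76 and 1.20 with the mean of all transcripts, 1.72, 1.55 and 2.03 with a pseudocount of 0.4, 2.79, 2.71 and 2.94 with one of 4, and 1.99, 1.76 and 2.30 with a mean index of 0 or more. It was 1.24, 1.04 and 1.55 with a limit of 4000 bp and 1.82, 1.63 and 2.13 with one of 6000 bp. By exonic length KO1 was at 1.51 and Control at 1.81, and without overlapping genes KO1 was at 1.52 and KO2 at 1.31. Among alternatives chosen after seeing the data, it was 1.60 in KO1 and 1.39 in KO2 where the longest annotated transcript meets the rule, and 1.48, 1.29 and 1.83 without small RNA hosts.

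Some named genes changed sign. With the mean of all transcripts Creb3 was at 0.10 in KO1 and 0.012 in the average, Psmb4 at 0.14 in the average and Rpl7a at -0.033 in KO2. In the average after median centring, Dnajb9 was at 0.0031, Aldoc at 0.050, Tubb2a at 0.056 and Ubl5 at 0.064. Dnajb9 was at 0.020 after quantile normalization. Leaving out 1 library, Dnajb9 ranged from -0.90 to 0.050 in the average, above 0 without Control replicate 1, and Ube2m from -0.11 to 0.44, below 0 without KO1 replicate 2 (-0.11) and Control replicate 2 (-0.015). The cause was not tested.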
